A study of Mus musculus with 2 samples.

Results

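Plasminogen activation and coagulation genes were described in cultures of mouse bone marrow derived macrophages. The 7 genes were chosen by symbol from the 31053 genes counted in both libraries. They were Plau, Plaur and Serpinb2 of the plasminogen activator system, F7, F10 and F13a1 of the coagulation cascade, and Thbs1, which encodes thrombospondin-1. Marrow cells of 129Sv mice were grown in RPMI-1640 with 10% fetal bovine serum and 50 ng/ml M-CSF, the growth factor that turns marrow precursors into macrophages, with fresh medium on day 3 and a partial change on day 6. On day 7 one culture received 1 µg/ml of a truncated, non-polymerizing form of the kidney tubule protein Tamm-Horsfall protein or uromodulin (THP) and the other received the 5% dextrose vehicle, both for 18 h. Each group was 1 droplet-based single-cell library, so no difference below has a replicate check, no p-value was computed, and treatment cannot be told apart from dish, harvest or library preparation.

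Urokinase (Plau) is a secreted protease that turns plasminogen into plasmin, which dissolves fibrin and cleaves matrix proteins. Its receptor (Plaur) holds it at the cell surface, and plasminogen activator inhibitor type 2 (Serpinb2) is a serpin that blocks it and is made by macrophages under inflammatory stimuli. Factor VII with tissue factor starts the extrinsic pathway of clotting, factor X is the protease activated next, and the factor XIII A subunit (F13a1) is the transglutaminase that crosslinks fibrin, known in monocytes and platelets. Thrombospondin-1 is a matrix glycoprotein of platelet granules, also made by myeloid and stromal cells, that binds Cd36 and Cd47.

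After barcodes with under 1000 unique molecular identifiers (UMIs, 1 per captured RNA molecule), under 500 genes or over 10% mitochondrial UMIs were left out, the THP library held 12123 cells with a median of 16113 UMIs and the vehicle library 10978 cells with a median of 17223. Of the kept cells, 38 barcodes occurred in both libraries. Although the label names macrophages, marker genes split the cells into 12 gates, each set by the summed UMIs of a cell type's markers per 10000 UMIs of the cell. The macrophage gate held 37.8% of THP cells and 24.8% of vehicle cells, and 51.9% against 34.4% of all UMIs. The neutrophil gate held 20.6% against 27.0% of cells, and the remainder lay in osteoclast-like, monocyte, myeloid progenitor, MHC class II-high and smaller gates or in none (6.17% against 3.07%). Cells with a neutrophil score between the limits of the neutrophil gate and of the other cells formed a gate of their own, called S100a8-intermediate. Sums over all cells therefore mixed cell types in different proportions in the 2 libraries, and the same genes were read again within each gate that held at least 50 cells in both libraries.

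Levels are given as CPM, the UMIs of a gene per 1000000 UMIs of the cells summed, with exact Poisson 95% intervals that cover counting error only. Differences are THP over vehicle, as the log2 ratio of CPM + 1, a scale that makes changes of low genes look smaller. A difference is called beyond counting error where the 95% interval of the fold excluded 1. This can hold where the CPM intervals of the 2 libraries overlap. A gene was read against a size rule if it reached 10 CPM in at least 1 library, and passed it with a ratio of 2-fold. Over all kept cells 1 of the 7 genes passed as lower in THP and 0 as higher, beside 2.97% and 0.911% of the 8012 genes read. The median log2 ratio of those 8012 genes was -0.18, and that of the 6 members read was -0.42. Scaling the libraries by TMM moved the median of all genes to 0.11 and the split from 73 higher and 238 lower to 138 higher and 69 lower, so the main ratios below are also given relative to the median of the genes read in the same cells.

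**Figure D1:**
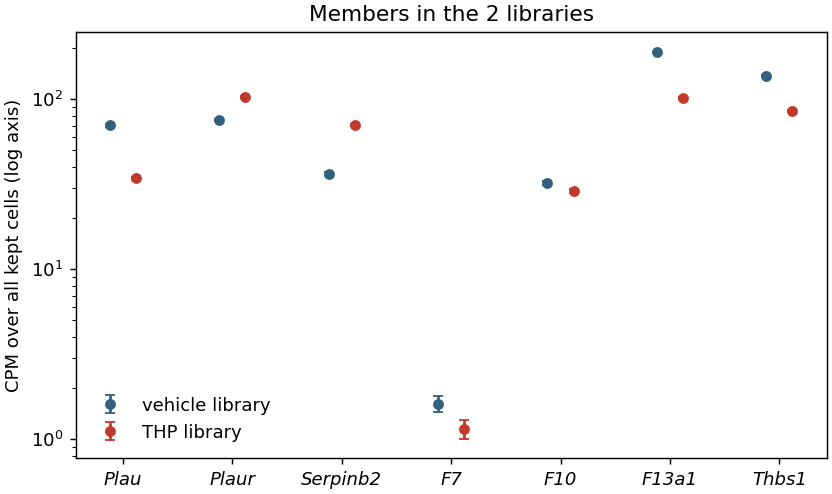
CPM of the 7 genes over all kept cells (log axis) in the vehicle (blue) and THP (red) library, 1 library per group, with exact Poisson 95% intervals, which are smaller than the points except for F7. Plau, F13a1 and Thbs1 sat lower and Plaur and Serpinb2 higher in the THP library, while F10 was at 28.8 against 32.2 CPM.

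Within the macrophage gate, cells of the THP library held less Plau RNA and more Plaur and Serpinb2 RNA than cells of the vehicle library. Plau was the 1 member past the size rule there, as lower, and 0 were higher, where 2.53% and 0.99% of the 7875 genes read in the gate were lower and higher. The genes of the activator, its receptor and its inhibitor are described in that order, followed by the clotting factors and Thbs1.

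The RefSeq promoter table (GRCm38.p6) held windows for 5 of the 7 genes. Plau and Thbs1 had no window, so their promoters were not searched. Of the 5 genes with a window, Plaur and Serpinb2 carried the letters TGANTCA, a loose form of the AP-1 binding motif that allows any base at N. Whether these letters go with the direction of a gene was not tested, as Plau and Thbs1 could not be searched. The base at N was C in Plaur and A in Serpinb2. The pattern, though not each match, reads the same on both strands. The 120 bases before an annotated start of each are shown because they hold these letters, with the match in capitals. They lie at chr7:24462363-24462482 for Plaur and chr1:107511303-107511422 for Serpinb2, both on the plus strand.
Plaur: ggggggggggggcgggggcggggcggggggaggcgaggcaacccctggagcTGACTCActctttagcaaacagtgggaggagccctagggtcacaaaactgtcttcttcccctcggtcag
Serpinb2: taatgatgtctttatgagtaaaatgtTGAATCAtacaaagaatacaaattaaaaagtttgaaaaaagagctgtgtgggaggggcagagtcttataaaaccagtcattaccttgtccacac
Counted from that start, the match spans bases -69 to -63 in Plaur and -94 to -88 in Serpinb2. The windows of F7, F10 and F13a1, 250 bases before to 50 after their starts, hold no such letters, and 7.81% of all 32851 windows in the table do. Serpinb2 also has the TATA box letters TATAAA at -29 to -24, which 13.6% of windows hold on either strand. Serpinb2 has another annotated start, from which the AP-1 match lies at -181 to -175 and the TATA box letters at -116 to -111. The letters GAGGAA of the myeloid factor PU.1 were found on 1 strand or the other in Plaur, F7 and F13a1 and in 28.3% of all windows. A pattern for NF-kB was found in no window of a member and in 8.46% of all windows. These matches describe the sequence only, and no binding was measured.

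Plau (ENSMUSG00000021822, chr14:20836660-20843385 in the GENCODE M21 annotation of GRCm38, plus strand) stood at 34.3 CPM (33.5 to 35.1) over all THP cells and at 70.2 (69.0 to 71.3) over all vehicle cells. The log2 ratio was -1.01, and -0.83 relative to the median of all genes, so the call over all cells is close to the 2-fold limit and was lost under several scalings. Most Plau UMIs came from the macrophage gate, 71.9% in THP and 66.8% in vehicle, followed by osteoclast-like cells.

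Macrophage-gate Plau was 47.5 CPM (46.2 to 48.7) in THP and 136 (134 to 139) in vehicle. The log2 ratio of -1.50 lay lower than that of all but 0.279% of the genes read in the gate, and was -1.34 relative to the gate's median. Halved or doubled gate limits, TMM scaling, equal weight per cell and leaving out the 5% of cells with most UMIs gave -1.54 to -1.26. A Plau UMI was found in 46.6% (45.2 to 48.1) of THP macrophages and 77.0% (75.4 to 78.6) of vehicle macrophages, and in 17.3% against 41.3% after each cell was thinned to 5000 UMIs. Cells with a UMI carried 2.59 on average in THP and 4.64 in vehicle. Neutrophils, which served as a measure of free RNA for this gene, had a Plau UMI in 2.96% and 3.78% of cells at a median depth of 5320 and 5541 UMIs, and in 2.90% and 2.68% after thinning. Macrophage markers summed to 282 CPM in THP neutrophils and 124 CPM in vehicle neutrophils, so the measure was not alike in the 2 libraries. Both the share of Plau-positive macrophages and their UMIs were thus lower in the THP library, and both shares lay above that of neutrophils.

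The difference was seen at each level of complement C1q, whose genes are among the macrophage markers. Cells were divided by their C1qa, C1qb and C1qc UMIs per 10000 at 5 and 20. In C1q-low macrophages Plau was 48.1 against 121 CPM (log2 ratio -1.32), in C1q-middle cells 43.7 against 144 (-1.70) and in C1q-high cells 52.7 against 159 (-1.57). Vehicle macrophages had more Plau with more C1q, whereas the 3 THP values lay between 43.7 and 52.7 CPM without that order.

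Outside the macrophage gate Plau was again below its vehicle level in each of the other 8 gates, by more than counting error in 7 of them. Among the 7 was the B lineage gate, at 9.56 against 36.6 CPM, past the size rule (log2 ratio -1.83, lower than all but 2.62% of genes read there). That value rested on 7 and 21 UMIs from 3 cells in each library, and the Poisson interval does not cover differences between cells. Osteoclast-like cells, macrophage-lineage cells marked by Acp5, Mmp12 and Atp6v0d2, had 75.9 CPM in THP and 136 in vehicle, a log2 ratio of -0.83. This was the gate with most Plau in the THP library. No member passed the size rule in osteoclast-like cells, where 0.715% of 7697 genes were higher and 1.92% lower. MHC class II-high cells had 15.2 against 34.8 CPM (-1.14) and monocytes 6.66 against 16.2 CPM (-1.17), so Plau passed in both. Relative to the gate's median the log2 ratios were -0.95 and -0.995, short of the limit. In monocytes it was the 1 member past the rule, beside 2.8% of genes lower and 0.938% higher. Myeloid progenitors had 6.31 against 12.3 CPM. The exception was the neutrophil gate, at 5.46 (4.39 to 6.70) against 5.57 (4.61 to 6.68) CPM, where the intervals overlapped. This gate was itself the free RNA measure for Plau. The THP intervals of monocytes (5.37 to 8.15 CPM) and myeloid progenitors (5.10 to 7.72 CPM) overlapped that of THP neutrophils.

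**Figure D2:**
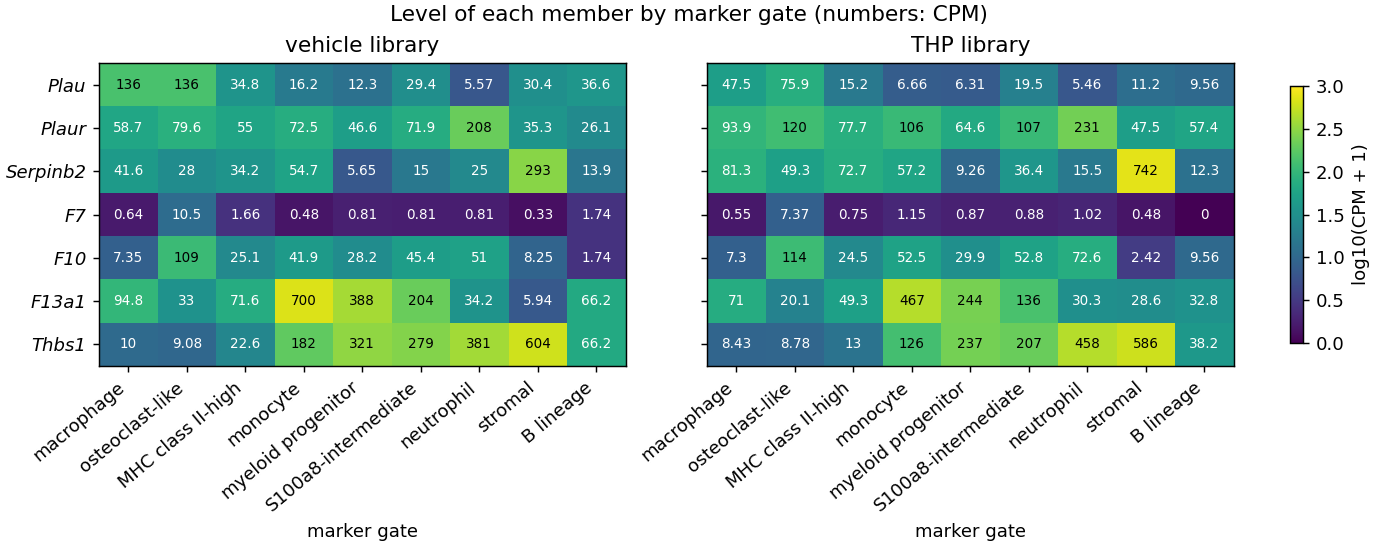
CPM of each gene (rows) in 9 marker gates (columns) in the vehicle and the THP library, coloured by log10(CPM + 1), with the CPM printed in each cell. Plau was highest in macrophage and osteoclast-like cells, Plaur in neutrophils, Serpinb2 in stromal cells, F7 and F10 in osteoclast-like cells, F13a1 in monocytes and Thbs1 in stromal cells and neutrophils.

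Plaur (ENSMUSG00000046223, chr7:24462484-24475968, plus strand), the urokinase receptor, was at 103 CPM (102 to 104) over all THP cells and 75.7 (74.5 to 76.9) over all vehicle cells. The log2 ratio was 0.44, and 0.62 relative to the median, and it did not pass the size rule. It was the most widely detected member, with a UMI in 67.2% of THP and 62.3% of vehicle cells.

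In both libraries the neutrophil gate had the most Plaur, at 231 CPM (224 to 238) in THP and 208 (201 to 214) in vehicle, a log2 ratio of 0.15. Within it the level followed maturity genes. Retnlg-high neutrophils, which have the mature neutrophil transcript Retnlg at 10 or more per 10000 UMIs, held 440 against 367 CPM. Granule-gene-high neutrophils (Ngp, Camp and Ltf) held 251 against 226 CPM, and neutrophils with neither 136 against 117 CPM. The order of the 3 groups was the same in both libraries and their intervals did not overlap.

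Macrophages held 93.9 CPM (92.1 to 95.6) in THP and 58.7 (56.9 to 60.5) in vehicle, a log2 ratio of 0.67, or 0.83 relative to the gate's median, that exceeded 98.1% of the genes read in the gate. Osteoclast-like cells held 120 against 79.6 CPM (0.58), monocytes 106 against 72.5 (0.54), MHC class II-high cells 77.7 against 55.1 (0.49) and myeloid progenitors 64.6 against 46.6 (0.46). In all 9 gates Plaur was higher in THP by more than counting error, and above the gate's median ratio. In stromal cells the CPM intervals nonetheless overlapped, at 38.6 to 57.9 against 28.9 to 42.7. The B lineage gate was among the 9, at 57.4 (41.3 to 77.5) against 26.1 (14.6 to 43.1) CPM, also with overlapping intervals. That value rested on 42 and 15 UMIs from 19 and 7 cells. Its log2 ratio of 1.11 passed the size rule and exceeded 96.9% of the genes read in that gate. Macrophage markers summed to 3719 and 5389 CPM in B lineage cells, against 1729 and 1394 CPM over all kept cells. Their part in the result was not tested. Over macrophages thinned to 5000 UMIs, 36.0% in THP and 24.9% in vehicle had a Plaur UMI, and in neutrophils 58.3% against 57.3%. B lineage cells had a Plaur UMI in 15.6% (9.64 to 23.2) and 8.97% (3.68 to 17.6) of cells, at median depths of 2759 and 4053 UMIs and without thinning.

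Serpinb2 (ENSMUSG00000062345, chr1:107511423-107535478, plus strand), the inhibitor, stood at 70.2 CPM (69.1 to 71.3) over all THP cells and 36.4 (35.5 to 37.2) over all vehicle cells. The log2 ratio of 0.93 was just short of the 2-fold limit, and 1.11 relative to the median of all genes. The annotation places the polymorphic pseudogene Serpinb10 across it on the same strand, so some reads could have been assigned to either.

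Macrophages had 81.3 CPM (79.7 to 82.9) of Serpinb2 in THP and 41.6 (40.1 to 43.1) in vehicle, a log2 ratio of 0.95 with a range of 0.91 to 1.19 over the alternatives, and 1.11 relative to the gate's median. The C1q-low cells had 92.1 against 47.7 CPM and the C1q-high cells 48.9 against 23.9 CPM. Serpinb2 was thus lower in C1q-high than in C1q-low macrophages in both libraries, and its log2 ratio was 0.93 in the C1q-low and 1.00 in the C1q-high cells. Its UMIs were concentrated: the 10% of macrophages with most Serpinb2 held 71.2% of its macrophage UMIs in THP and 75.3% in vehicle, against 52.0% and 39.4% for Plau. A UMI was found in 36.9% of THP and 26.8% of vehicle macrophages, and in 18.2% and 11.3% after thinning.

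Other gates differed from one another in this gene. Stromal cells, 78 in THP and 71 in vehicle marked by collagen genes, had the highest level, 742 CPM (706 to 781) against 293 (274 to 313), a log2 ratio of 1.34. The 10% of stromal cells with most Serpinb2 held 64.3% and 54.4% of its UMIs there, so few cells carry this value. The summed stromal markers of the gate were 5332 CPM in THP and 14787 CPM in vehicle, with all 6 detected in both, and their part in the result was not tested. MHC class II-high cells had 72.7 against 34.2 CPM (1.06, and 0.89 to 0.98 with other gate limits) and S100a8-intermediate cells 36.4 against 15.0 CPM (1.23, and 0.92 with doubled limits). Serpinb2 and Plau were the members past the rule in MHC class II-high cells, 1 in each direction, beside 1.2% of genes higher and 3.94% lower. Macrophage markers summed to 1070 CPM in S100a8-intermediate cells of THP and 576 CPM in those of vehicle, with 8 of 8 detected in both, and their part in the result was not tested. In that gate 1 member was higher and 0 lower, beside 1.43% and 3.01% of genes. Osteoclast-like cells had 49.3 against 28.0 CPM (0.79). Monocytes, in contrast, had 57.2 (53.3 to 61.3) against 54.7 (51.7 to 57.8) CPM, with overlapping intervals.

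Neutrophils were the gate where Serpinb2 was lower in THP beyond counting error, at 15.5 CPM (13.6 to 17.5) against 25.01 (22.9 to 27.2), a log2 ratio of -0.66 and -0.43 relative to the gate's median. A UMI was found in 8.64% of THP and 15.0% of vehicle neutrophils, nearly always a single one. After thinning the shares were 5.88% and 9.01%. B lineage cells had a Serpinb2 UMI in 2.46% (0.510 to 7.02) and 3.85% (0.800 to 10.8) of cells. Granule-gene-high neutrophils had 16.1 against 29.8 CPM and Retnlg-high neutrophils 33.6 against 53.7 CPM, while those with neither had 8.53 (6.46 to 11.1) against 6.53 (4.81 to 8.66) CPM, with overlapping intervals. The ratio of the whole gate was -0.19 with halved and -0.90 with doubled gate limits.

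**Figure D3:**
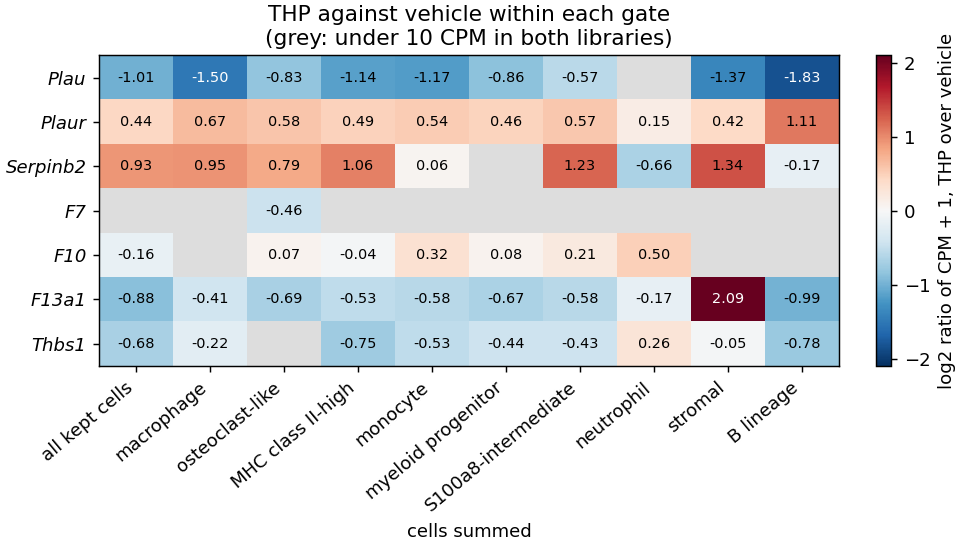
Log2 ratio of CPM + 1, THP over vehicle, of each gene (rows) over all kept cells and within 9 marker gates (columns). Red is higher and blue lower in the THP library, and grey marks genes under 10 CPM in both libraries. Plaur was above 0 in every gate, Plau below 0 in every gate read, and Serpinb2 at -0.66 in neutrophils against 0.95 in macrophages.

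Co-detection of Plau, Plaur and Serpinb2 was counted in macrophages thinned to 5000 UMIs. Among THP macrophages with a Plau UMI, 45.4% (41.9 to 49.0) also had a Plaur UMI, against 34.0% (32.5 to 35.6) of those without. In vehicle the shares were 26.6% (24.0 to 29.3) and 23.7% (21.6 to 25.9). Serpinb2 was found in 18.1% of THP macrophages with and 18.2% of those without a Plau UMI, and in 11.8% and 11.1% in vehicle. In THP the receptor was found more often in cells with urokinase than in those without, in vehicle the intervals overlapped, and the difference between the libraries was not tested. The cells of a library are not replicates, and these shares describe the 2 libraries.

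F7 (ENSMUSG00000031443, chr8:13026034-13035809) and F10 (ENSMUSG00000031444, chr8:13037308-13056676) encode vitamin K-dependent clotting proteases and lie side by side on the plus strand with 1498 bases between them. F7 was rare, with 257 UMIs in the THP library (1.14 CPM, 1.01 to 1.29) and 335 in the vehicle library (1.61 CPM, 1.44 to 1.80), and was not read against the size rule over all cells. Osteoclast-like cells held 42.8% of these UMIs in THP and 53.7% in vehicle, though they held only 6.64% and 8.27% of all UMIs. There F7 was 7.37 CPM (6.06 to 8.88) against 10.5 (9.004 to 12.1), a log2 ratio of -0.46 and -0.27 relative to the gate's median. Macrophages had 0.548 and 0.644 CPM, on 64 and 46 UMIs.

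F10 stood at 28.8 CPM (28.1 to 29.5) over all THP cells and 32.2 (31.4 to 33.0) over all vehicle cells, a log2 ratio of -0.16, or 0.02 relative to the median of all genes. Its sign turned under TMM scaling (0.12) and when the gates were weighted alike in both libraries (0.28), so no direction is given over all cells. Osteoclast-like cells were again the highest gate, at 114 CPM (109 to 120) against 109 (104 to 114), with overlapping intervals. The F7 ratio shrank to -0.11 with doubled gate limits (9.37 against 10.2 CPM), and 3.25% against 3.00% of thinned osteoclast-like cells had an F7 UMI, so no direction is given for F7 either.

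Neutrophils held 72.6 CPM of F10 (68.6 to 76.8) in THP and 51.0 (48.0 to 54.1) in vehicle, a log2 ratio of 0.50 that exceeded 95.3% of the genes read in the gate. No member passed the size rule in neutrophils, where 1.79% of 7318 genes were higher and 5.17% lower. After thinning, 27.2% (24.8 to 29.7) of THP and 19.8% (17.9 to 21.9) of vehicle neutrophils had an F10 UMI. Monocytes held 52.5 against 41.9 CPM (0.32) and S100a8-intermediate cells 52.8 against 45.4 CPM (0.21). In macrophages F10 was 7.30 (6.81 to 7.80) against 7.35 (6.73 to 8.005) CPM, and 2.25% and 2.76% of thinned macrophages had a UMI. B lineage cells, taken as the measure of free RNA here, had an F10 UMI in 3.28% and 1.28% of cells at a median depth of 2759 and 4053 UMIs. That gate also held myeloid RNA. Its macrophage markers summed to 3719 CPM in THP and 5389 CPM in vehicle, against 1729 and 1394 CPM over all kept cells. Its neutrophil markers summed to 18018 and 13830 CPM, against 24135 and 30534 CPM over all kept cells. It is thus an imperfect measure of free RNA. The levels of F10 in osteoclast-like cells, neutrophils and monocytes were all above that in macrophages in both libraries.

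Within thinned osteoclast-like cells, F10 was found in 11 of 18 THP cells with an F7 UMI (61.1%, 35.7 to 82.7) and in 28.8% (24.98 to 32.8) of those without. In vehicle it was found in 10 of 16 (62.5%, 35.4 to 84.8) and in 32.1% (28.1 to 36.3). F10 was found more often in cells with an F7 UMI in both libraries, on few F7-positive cells and with overlapping intervals in vehicle.

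F13a1 (ENSMUSG00000039109, chr13:36867178-37050244, minus strand) was at 102 CPM (101 to 103) over all THP cells and 189 (187 to 191) over all vehicle cells, a log2 ratio of -0.88 and -0.70 relative to the median. Gm49144 and Gm30489 are annotated antisense to it, and the sources used here do not say if counting took strand into account. The monocyte gate held 28.4% of its UMIs in THP and 41.0% in vehicle.

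Monocytes had 467 CPM (455 to 478) in THP and 700 (689 to 711) in vehicle, a log2 ratio of -0.58, or -0.41 relative to the gate's median. The share of thinned monocytes with a UMI was close, 71.8% (68.6 to 75.0) against 74.8% (72.1 to 77.4), while the mean number of UMIs per positive cell was 9.76 against 17.3 at full depth. Myeloid progenitors, marked by Mpo, Elane, Prtn3 and Ctsg, had 244 against 388 CPM (-0.67). Macrophages had 71.0 against 94.8 CPM (-0.41) and osteoclast-like cells 20.1 against 33.0 CPM (-0.69). F13a1 CPM was therefore lower in THP within monocytes, progenitors and macrophages, but by less than 2-fold in each. In macrophages the log2 ratio was -0.25 relative to the gate's median and -0.17 under TMM scaling. The share of macrophages with a UMI was higher in THP, 42.5% against 38.8%. After thinning it was 21.3% (20.1 to 22.5) against 20.1% (18.6 to 21.7), with overlapping intervals. In 8 of 9 gates the difference below vehicle exceeded counting error. Neutrophils had 30.3 (27.7 to 33.1) against 34.2 (31.7 to 36.8) CPM, which was 0.06 above the gate's median ratio and turned sign with doubled gate limits (0.11).

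Stromal cells went the other way, with 59 F13a1 UMIs in THP and 18 in vehicle (28.6 against 5.94 CPM, log2 ratio 2.09). Those UMIs came from 13 and 9 cells, and 91.5% of the THP UMIs lay in the 10% of stromal cells with most. Myeloid progenitor markers summed to 398 CPM in the stromal gate of THP and 69.3 CPM in that of vehicle, and monocyte markers to 192 against 164 CPM, with 4 of 4 detected for each list in both. Their part in the result was not tested. The stromal gate thus had Serpinb2 and F13a1 as 2 members higher and Plau as 1 lower (11.2 against 30.4 CPM, on 23 and 92 UMIs), beside 2.8% and 5.93% of the 8717 genes read there.

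**Figure D4:**
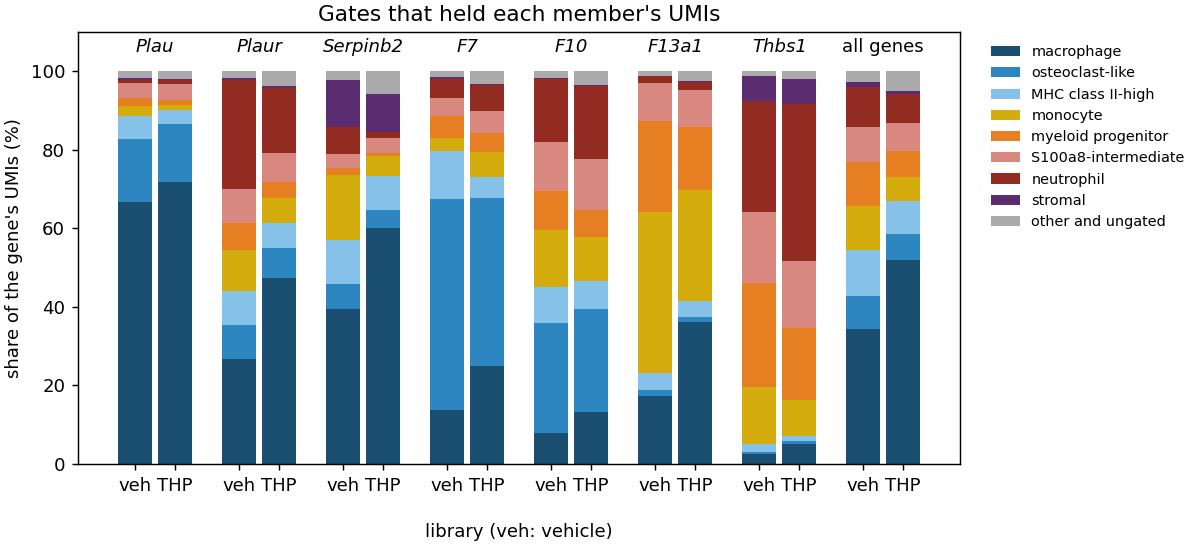
Share of each gene's UMIs (percent) that came from each marker gate, per library, with the shares of all genes' UMIs at the right. Plau came mainly from macrophages, F7 from osteoclast-like cells, F13a1 from monocytes, progenitors and macrophages, and Thbs1 from neutrophils, S100a8-intermediate cells and progenitors.

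Thbs1 (ENSMUSG00000040152, chr2:118111876-118127133, plus strand) was at 85.2 CPM (84.0 to 86.4) over all THP cells and 137 (135 to 139) over all vehicle cells, a log2 ratio of -0.68, or -0.50 relative to the median. The ratio was -0.01 when each gate had the same weight in both libraries and -0.02 with equal weight per cell, which leaves the gate shares as they were. Macrophages held little Thbs1, 8.43 against 10.0 CPM, although they made up 51.9% and 34.4% of the UMIs. A lincRNA, Gm29233, is annotated on the opposite strand.

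The neutrophil gate held 39.9% of Thbs1 UMIs in THP and 28.2% in vehicle, at 458 CPM (448 to 468) against 381 (373 to 390), a log2 ratio of 0.26. In Retnlg-high neutrophils Thbs1 was 1001 CPM (961 to 1043) in the 671 THP cells and 362 (340 to 384) in the 939 vehicle cells, a log2 ratio of 1.47. Granule-gene-high neutrophils had 413 (399 to 428) against 423 (411 to 436) CPM and neutrophils with neither had 323 (309 to 337) against 329 (316 to 342) CPM, with overlapping intervals in both. The difference in the neutrophil gate was thus seen in its Retnlg-high cells. Thbs1 was the 1 member past the size rule among Retnlg-high cells, as higher, beside 2.33% of 6312 genes higher and 15.3% lower.

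A Thbs1 UMI was found in 69.6% (66.0 to 73.1) of THP and 37.1% (34.0 to 40.2) of vehicle Retnlg-high neutrophils, whose median depths were 2608 and 2417 UMIs. B lineage cells had a Thbs1 UMI in 7.38% and 12.8% of cells at median depths of 2759 and 4053 UMIs, so the vehicle comparison cells were deeper. Retnlg-high cells with a UMI carried 4.91 against 3.06. Only 102 and 94 of them reached the 5000 UMIs needed for thinning, and of these 83.3% (74.7 to 90.0) and 73.4% (63.3 to 82.0) had a UMI, with overlapping intervals. The log2 ratio was 1.34 to 1.65 with gate and Retnlg limits halved or doubled, 1.88 with equal weight per cell and 1.87 relative to the median of the genes read. Platelet markers were nearly absent from these cells, at 3.49 CPM summed in THP with 3 of 6 detected and 1.36 CPM in vehicle with 2 of 6, and Itga2b, Gp1bb and Tubb1 were at 0 in both. Neutrophil markers summed to 354380 against 305107 CPM and macrophage markers to 262 against 211 CPM, with 7 and 8 of 8 detected, and their part in the result was not tested.

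Stromal cells had the highest Thbs1 in vehicle among the gates, 604 CPM (577 to 633), and 586 (553 to 620) in THP, with overlapping intervals. Myeloid progenitors had 237 against 321 CPM (-0.44), S100a8-intermediate cells 207 against 279 CPM (-0.43) and monocytes 126 against 182 CPM (-0.53). In 6 of 9 gates Thbs1 was lower in THP by more than counting error, and in 1, the neutrophils, it was higher. The macrophage ratio was -0.06 relative to the gate's median. The neutrophil ratio was 0.13 with halved and 0.46 with doubled gate limits. After thinning, 66.0% (63.4 to 68.6) of THP and 68.6% (66.2 to 70.9) of vehicle neutrophils had a Thbs1 UMI, with overlapping intervals.

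**Figure D5:**
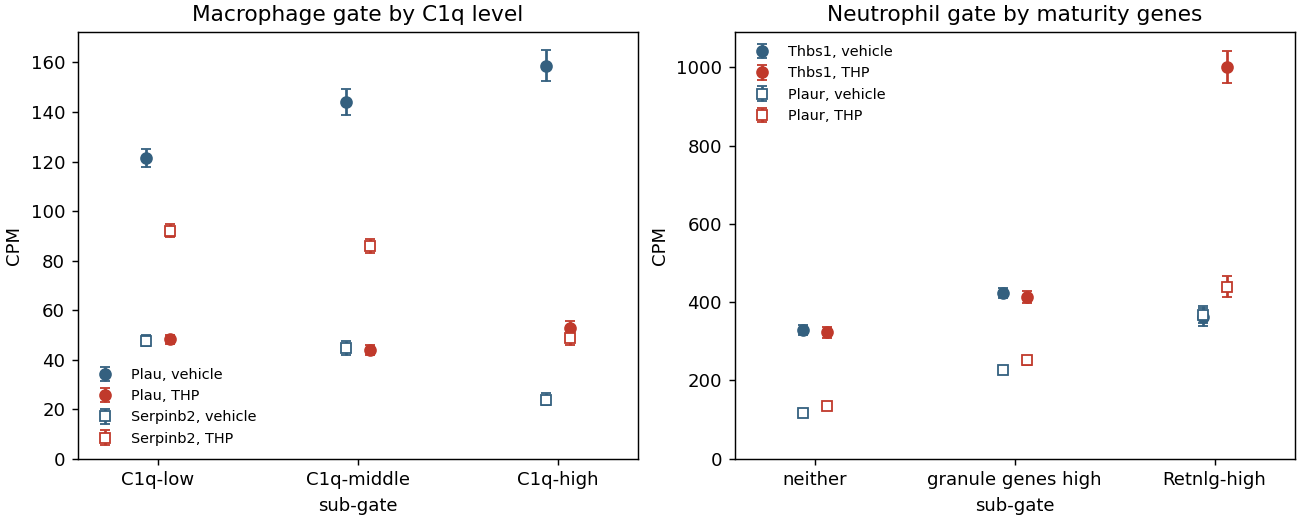
Left, CPM of Plau (filled) and Serpinb2 (open) in macrophages by C1q level. Right, CPM of Thbs1 (filled) and Plaur (open) in neutrophils by maturity genes. Vehicle is blue and THP red, with exact Poisson 95% intervals. Plau was lower in THP at each C1q level, and Thbs1 differed in the Retnlg-high neutrophils, at 1001 against 362 CPM.

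A list of 50 other genes of the 2 systems, in 6 roles, placed the members among their partners. Of these, 43 had at least 1 UMI, and 7 had none in either library: Plg, Serpina5, Cpb2, F11, Fga, Fgb and Fgg. Plasminogen and fibrinogen, the substrates of the 2 systems, were thus not detected, which with 224825484 and 207662132 UMIs allows up to 3 UMIs per library. Over all cells 13 of the 50 were read, 0 were higher and 0 lower, with a median log2 ratio of -0.05 beside -0.18 for all genes. In macrophages 13 were read, 1 was higher and 0 lower, with a median of 0.05 beside -0.16. In neutrophils 13 were read, 1 was higher and 1 lower, with a median of -0.13 beside -0.23, and in monocytes 12 were read, 0 were higher and 1 lower, with a median of 0.07 beside -0.17. In osteoclast-like cells 14 were read and 0 passed.

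Among plasminogen receptors, S100a10 was at 1107 CPM in THP and 867 in vehicle, a log2 ratio of 0.35, and Anxa2, which pairs with it to bind plasminogen at the cell surface, at 777 and 663 CPM (0.23). In neutrophils S100a10 was 133 against 59.5 CPM, a log2 ratio of 1.15, and it was the gene of the list that was higher there. In the same gate macrophage markers summed to 282 against 124 CPM (8 of 8 detected in both), MHC class II markers to 418 against 178 CPM (5 of 5) and B lineage markers to 501 against 65.3 CPM (5 of 6), and their part in the result was not tested. Plat, the other plasminogen activator, was at 16.5 against 35.6 CPM in stromal cells on 34 and 108 UMIs. Plat was named after its values were seen.

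Of the procoagulant genes, F5, the cofactor of factor X in the prothrombinase complex, was at 3.56 against 9.48 CPM over all cells, under the limit for reading. In neutrophils it was 23.3 against 52.0 CPM, a log2 ratio of -1.13, so in that gate F10 was above and its cofactor below the vehicle level. Fgl2, a prothrombinase-like protein of macrophages and T cells, was 12.9 against 4.24 CPM in macrophages (1.41) and 15.5 against 33.3 CPM in monocytes (-1.05), and at 14.7 against 19.0 CPM over all cells. F3, which encodes tissue factor, the partner of factor VII, was named after its values were seen. It was at 7.77 against 3.14 CPM in osteoclast-like cells, on 116 and 54 UMIs. In stromal cells F3 was at 17.5 against 3.96 CPM, on 36 and 12 UMIs.

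Genes of the vitamin K cycle and of factor export did not pass the rule over all cells. Vkorc1, the enzyme that recycles vitamin K, was at 45.1 against 37.3 CPM and Lman1, an export receptor for clotting factors, at 110 against 130 CPM. Of the anticoagulants, Pros1 (protein S) was at 10.3 against 14.9 CPM and Tfpi, the inhibitor of the tissue factor and factor VII complex, at 9.87 against 9.52 CPM. None of the 4 protease-activated receptors reached 10 CPM over all cells, where F2r, the thrombin receptor, was at 0.538 against 0.390 CPM and F2rl3 at 0.160 against 0.289 CPM. The thrombospondin-1 receptors Cd36 and Cd47 were at 314 against 371 CPM (-0.24) and at 380 against 322 CPM (0.24).

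The genes most like each member were found by the Pearson correlation of log2(CPM + 1) over the 19 sums of a gate and a library with at least 50 cells, among 10528 genes. The sums of a library share its preparation and those of a gate its markers, so r is given as a description. Plau was most like Rab3il1 (r = 0.96), Rasa1 and Hpgds (both 0.94). Plaur was most like Fam241a and A530064D06Rik (both 0.89) and Sqor (0.88), and Serpinb2 like Tuba1a (0.94), Tax1bp3 (0.91) and Fads3 (0.89). F7 was most like Gm44206 (0.91), Pip5k1c (0.89) and Serpinb9b (0.88), F10 like Taldo1 (0.85), Rgs18 and Siglecf (both 0.84), F13a1 like Gm28875, Rfxap and Exosc8 (all 0.89), and Thbs1 like Ncam1 (0.98), Prr7 (0.92) and Nxn (0.91). Members were less like one another: Plau and Plaur had r = -0.19 and Plau and Serpinb2 r = 0.17, while Plau and Thbs1, high in different gates, had r = -0.69.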

How the data were processed

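The authors deposited unnormalized UMI counts for every gene and barcode, from matrix software version 3.1.0 per the file headers; the submitters' processing notes name Cell Ranger, STAR, bcl2fastq and mm10 without their roles. No ambient RNA or doublet removal was applied, and no doublet caller was run, so doublets remain. UMIs of kept cells were summed per library and gate with numpy 2.4.6, pandas 2.3.3 and scipy 1.17.1. Shares of cells carry exact (Clopper-Pearson) binomial 95% intervals, fold intervals are conditional on the summed counts, and all cover counting error only. Thinning drew 5000 UMIs per cell and left out shallower cells. TMM and RLE factors came from edgeR 4.0.16, without a test. The counting steps were tested on simulated data.

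The members, the list of 50 partner genes and the markers were chosen with earlier results of these data known, and the gate limits, sub-gates and score bounds after the score distributions were seen. No member was a gate marker. Genes were named as the 7 members, the partner genes past the 2-fold rule and otherwise up to 2 genes per role with the highest mean CPM, plus the 3 genes most like each member. Gene coordinates come from GENCODE M21, and the promoter sequences from RefSeq.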

Additional observations from a re-analysis of the deposited data

Results flagged for a closer look

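Serpinb2, F13a1 and Thbs1 had gates with ratios beyond counting error in opposite directions. Serpinb2 had a log2 ratio of 1.34 in stromal cells and -0.66 in neutrophils. F13a1 had 2.09 in stromal cells and -0.99 in B lineage cells, the latter on 24 and 38 UMIs and turning to 0.18 with doubled gate limits. Thbs1 had 0.26 in neutrophils and -0.78 in B lineage cells, on 28 and 38 UMIs. With 1 library per group the differences between gates were not tested.

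Barcodes left out for low depth or mitochondrial share, 1070 in THP and 606 in vehicle, held members above and members below the vehicle level. Plaur was at 125 CPM (111 to 140) in those of THP and 85.3 (70.9 to 102) in those of vehicle. Serpinb2 was at 75.9 CPM (65.1 to 88.1) against 30.8 (22.4 to 41.3). Lower in those of THP were Plau, at 46.4 CPM (38.1 to 56.1) against 85.3 (70.9 to 102), and F13a1, at 120 (106 to 135) against 164 (143 to 186). Thbs1 was lower too, at 312 CPM (290 to 336) against 442 (408 to 478).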

How the results depend on the processing

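Over all kept cells, 1 member was higher under TMM, RLE and a fold limit of 1.5. Members lower numbered 0 under TMM, RLE, equal weight per cell, the length correction centred on 0 and without the top 5% of cells by UMIs, and 3 at a fold limit of 1.5. Partner genes lower numbered 1 without the top 5% of cells, with equal weight, with the same mix of gates and with no minimum CPM. Beside these counts, 138 of 7957 genes read were higher and 69 lower under TMM, and 138 and 69 of 7955 under RLE. All genes lower numbered 285 of 7980 with equal weight and 70 of 8012 with the length correction centred on 0. They numbered 253 of 8007 without the top 5% of cells and 201 of 7954 with the same mix of gates. No count over all genes was made at the 1.5-fold limit or without a minimum CPM. F10 turned to 0.12 under TMM, 0.11 under RLE, 0.11 with equal weight and 0.28 with the same mix of gates. The cause was not tested. The other members kept the sign of their ratio over all cells under 12 alternatives. The ranges were -1.28 to -0.73 for Plau, 0.19 to 0.72 for Plaur, 0.70 to 1.21 for Serpinb2, -0.50 to -0.06 for F7, -0.96 to -0.53 for F13a1 and -1.06 to -0.01 for Thbs1. No direction is given for F7, as stated above. Thbs1 was at -0.01 with the same mix of gates and -0.02 with equal weight, where the medians of all genes were -0.19 and -0.18. Relative to those medians it was not lower in THP. Of the 12 alternatives, the sums without stromal cells and without the neutrophil and S100a8-intermediate gates, like the alternatives for Retnlg-high neutrophils, were chosen after seeing the data. No paired analysis was possible because each group had 1 library, and for the same reason no library could be left out.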
